A study of Mus musculus with 4 samples.

Results

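The genes described here encode 10 leukocyte adhesion molecules, chosen by symbol from the 32285 genes of the deposited tables: Vcam1, Icam1, Icam2, Itga4, Itgal, Itgb2, Itgam, Selp, Selplg and Alcam. Every symbol matched 1 gene. Spatial RNA counts came from the Visium assay on fresh-frozen kidney sections, 10 µm thick. In it, spots printed on a slide capture polyadenylated RNA from the tissue lying on them, usually from several cells. The Uox_KO group held 2 sections of male C57BL/6J-background mice from which exons 2 to 4 of Uox, the gene for the urate-degrading enzyme urate oxidase, had been removed, and in which uric acid accumulates. The Control group held 2 sections of male mice of the same background with the gene intact. By its title each section came from a mouse of its own, so sections were treated as the replicates (n = 2 for each genotype). The labels name no drug or other treatment, and give neither the ages nor which mice were litter mates.

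Leukocytes leave the blood in steps. P-selectin (Selp), held in granules of endothelial cells and platelets, lets them roll by binding PSGL-1 (Selplg) on their surface, and integrins then hold them to immunoglobulin-type ligands on the vessel wall. VCAM-1 binds the integrin chain encoded by Itga4, while ICAM-1 and ICAM-2 bind LFA-1, made of the Itgal and Itgb2 chains, and ICAM-1 also binds Mac-1, made of the Itgam and Itgb2 chains. In the kidney VCAM-1 and ICAM-1 are known from activated endothelium and also from injured tubule epithelium, which carries KIM-1, the product of Havcr1.

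A promoter sequence, from 250 bases before to 50 bases after the gene's start, was at hand for 5 of the 10 genes (Icam1, Itga4, Itgam, Selp and Alcam), from RefSeq on GRCm38.p6, the build that is also called mm10. Those of Icam1, a ligand that stood higher in Uox_KO, and of Itgam, the integrin chain with the largest fold change of the 10, are shown because each of the 3 motifs searched for matched in 1 of them. Capitals mark the motif matches: in Icam1, on the + strand at chr9:21015690-21015989, GGAAATTCC (a form of the NF-kB motif) starting at -153 from the gene's start and TTCCCGGAA (the STAT motif TTCCNGGAA) starting at -42. In Itgam, on the + strand at chr7:128062390-128062689, they mark GAGGAA (the core of the PU.1 motif), which matched 3 times over both strands.
Icam1: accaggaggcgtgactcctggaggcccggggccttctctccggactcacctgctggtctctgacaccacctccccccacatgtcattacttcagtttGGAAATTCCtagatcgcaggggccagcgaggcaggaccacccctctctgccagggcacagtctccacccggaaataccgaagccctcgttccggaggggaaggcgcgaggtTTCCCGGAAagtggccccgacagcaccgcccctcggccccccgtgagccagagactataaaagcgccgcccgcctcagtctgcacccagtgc
Itgam: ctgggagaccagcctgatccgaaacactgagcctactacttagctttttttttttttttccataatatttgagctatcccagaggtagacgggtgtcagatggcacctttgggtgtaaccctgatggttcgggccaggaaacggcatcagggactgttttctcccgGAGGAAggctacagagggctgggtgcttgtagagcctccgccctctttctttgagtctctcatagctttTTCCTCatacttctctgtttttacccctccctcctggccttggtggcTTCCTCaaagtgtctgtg
All 3 motifs were searched on both strands. They share the letters GGAA, but their matches in these promoters did not overlap. Of 32851 promoters in the table, 0.317% held GGAAATTCC, 1.15% TTCCNGGAA and 28.3% GAGGAA. Of the other promoters, that of Alcam held GAGGAA 1 time, and the rest held none of these letters. A match is a description of letters and was set against no binding data.

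RNA molecules were counted by their unique identifiers (UMIs), 53897511 and 57230517 of them from 2650 and 2590 spots in Uox_KO, against 93524222 and 107962997 from 2528 and 3362 spots in Control. Uox_KO values therefore rest on fewer molecules. Levels are given in CPM, the usual library-size unit, on the TMM scale of each comparison, and 1713 of the 3936 spot barcodes occur in all 4 sections, since barcodes name positions of the slide. Havcr1, used below to sort spots, averaged 86.4 ± 9.03 CPM in Uox_KO and 0.305 ± 0.00170 CPM in Control (SD, n = 2 each). Defining tubule genes were at high levels in every section, and so marked the tissue as kidney: Umod, for the thick limb's uromodulin, lay at 840.2 and 1090.5 CPM in Uox_KO and at 1778 and 2123 CPM in Control.

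The comparison of whole sections asked how the adhesion genes differ in the hyperuricemic kidney. Of the 10 genes, 9 rose in Uox_KO, from Alcam at 2.59-fold to Itgam at 29.5-fold, and 1, the endothelial ligand Icam2, fell. The median log2 fold change of the 10 was 2.33, against 0.0025 over all genes tested. The background was high: of 16369 genes tested, 34.6% were called higher and 32.5% lower at an adjusted p under 0.05. In a section, fewer cells of a type and less RNA per cell cannot be told apart.

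Of the ligands, Vcam1 had the largest rise. It was measured at 99.5 and 83.2 CPM in the Uox_KO sections, against 4.94 and 4.85 CPM in the Control sections, with means of 91.4 ± 11.5 CPM in Uox_KO and 4.90 ± 0.0605 CPM in Control (SD, n = 2 each). Both Uox_KO sections lay far above both Control sections. The fold was 18.6 (log2 fold change 4.22, SE 0.10, adjusted p 1.27e-06). Icam1 was at 60.8 and 55.5 CPM in Uox_KO, against 14.3 and 14.2 CPM in Control. The groups did not overlap, and the log2 fold change was 2.03 (SE 0.07, adjusted p 2.43e-06). Alcam, a homophilic adhesion molecule of epithelia that also binds CD6 on T cells, was at 33.6 and 30.4 CPM in Uox_KO and at 12.0 and 12.8 CPM in Control, a log2 fold change of 1.37 (SE 0.07, adjusted p 1.27e-05).

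Icam2, which resting endothelium makes constitutively, went the other way. Its levels were 9.38 and 10.0 CPM in Uox_KO and 11.3 and 13.7 CPM in Control. The groups did not overlap but lay close, and the fall was 0.37 on the log2 scale (SE 0.11, adjusted p 0.0204), with a 95% interval from -0.62 to -0.11. It missed the threshold without Control replicate 2 (log2 fold change -0.23, adjusted p 0.112) and with library totals in place of TMM (-0.10, adjusted p 0.421), a scaling that moved the median of all genes by 0.27.

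The selectin and its ligand both rose. Selp gave 67 and 37 UMIs in the Uox_KO sections and 2 and 4 UMIs in the Control sections, or 1.11 and 0.601 CPM against 0.0235 and 0.0405 CPM. It is the scarcest of the 10 transcripts by UMIs, and its log2 fold change of 4.65 has a wide 95% interval, from 3.40 to 5.90 (adjusted p 0.000279). Selplg was at 16.0 and 15.0 CPM in Uox_KO and at 2.47 and 2.51 CPM in Control, with a log2 fold change of 2.64 (SE 0.09, adjusted p 2.43e-06). Platelets also hold P-selectin. Of their 6 listed markers, 3 were tested, and they did not move together. Itga2b, the platelet integrin chain, averaged 5.02 ± 0.424 CPM in Uox_KO and 8.16 ± 0.0610 CPM in Control (SD, n = 2 each). The platelet chemokine Pf4 averaged 13.6 ± 2.26 CPM in Uox_KO and 1.34 ± 0.00417 CPM in Control (SD, n = 2 each). Ppbp had a log2 fold change of -0.04 (adjusted p 0.94). Pf4 also varied with macrophage markers. In Uox_KO spots without Havcr1 that were not endothelium-rich, classes defined below, it was at 53.7 and 46.9 CPM in macrophage-rich spots. In the others it was at 10.7 and 8.63 CPM. The part of platelets in the Selp result was not tested.

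All 4 leukocyte integrin chains rose. Itgam, the Mac-1 chain of myeloid cells, was at 8.30 and 7.22 CPM in Uox_KO and at 0.306 and 0.223 CPM in Control, a log2 fold change of 4.88 (SE 0.18, adjusted p 3.74e-06). Itgb2, the chain that LFA-1 and Mac-1 share, was at 14.6 and 13.5 CPM in Uox_KO and at 2.12 and 2.02 CPM in Control, a log2 fold change of 2.76 (SE 0.09, adjusted p 2.86e-06). For neither gene did the groups overlap. Itgal, the LFA-1 chain of lymphocytes, was at 5.27 and 4.53 CPM in Uox_KO and at 1.40 and 1.27 CPM in Control, a log2 fold change of 1.87 (adjusted p 5.03e-05). Itga4, the chain that binds VCAM-1, was at 4.53 and 3.64 CPM in Uox_KO and at 0.953 and 1.38 CPM in Control, a log2 fold change of 1.80 (adjusted p 0.000331). The 2 Control sections differed more for Itga4 than for Itgal, but stayed below both Uox_KO sections.

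**Figure D1:**
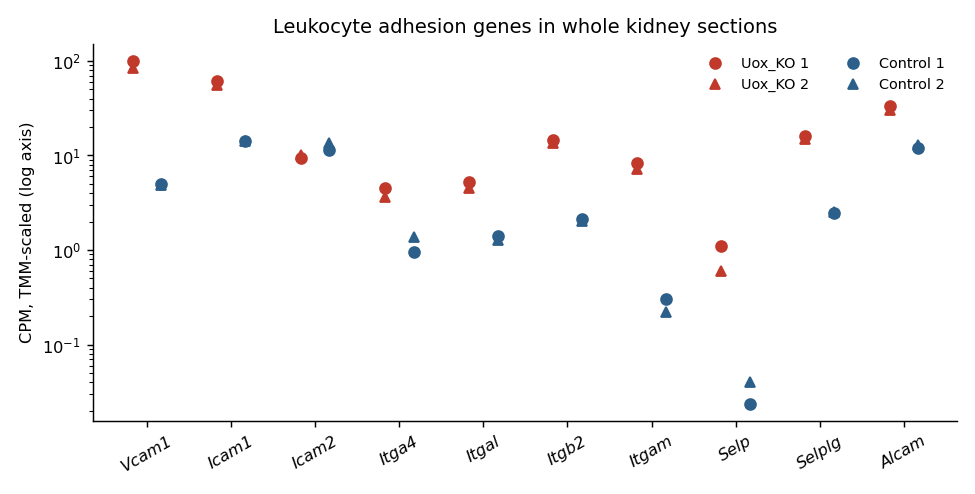
Level of each of the 10 adhesion genes in whole kidney sections (y axis: TMM-scaled CPM, log axis), with 1 point per section, Uox_KO in red and Control in blue. The 9 genes other than Icam2 stand higher in both Uox_KO sections, and Icam2 stands slightly lower; levels of different genes are not per length and are not compared with each other.

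Marker lists of the cells that carry these molecules moved in the same comparison. All 13 macrophage and monocyte markers rose, with a summed level of 1474 and 1220 CPM in Uox_KO and 128 and 118 CPM in Control. All 11 T and NK cell markers rose too. Of 14 endothelial markers, 3 rose and 7 fell, and their sum was 384 and 407 CPM in Uox_KO and 490 and 509 CPM in Control; Pecam1, for the endothelial adhesion molecule CD31, had a log2 fold change of -0.05 (adjusted p 0.415). Lists of other cells moved too. All 8 fibroblast, 7 urothelium, 7 adipocyte and 10 injured tubule markers rose, with median log2 fold changes of 3.70, 9.41, 6.15 and 3.93, and all 5 red blood cell markers fell, with a median of -3.42. Adipocyte markers summed to 1629 and 2998 CPM in Uox_KO and 59.4 and 96.0 CPM in Control, and red blood cell markers to 252 and 736 CPM in Uox_KO and 5881 and 5486 CPM in Control. Without the spots of fat and urothelium all 10 genes kept their calls and directions, with log2 fold changes of 4.33 for Vcam1, 2.08 for Icam1 and -0.48 for Icam2; the part of the fibroblast and red blood cell lists was not tested. Few spots lacked leukocyte transcripts: 15 and 13 spots in Uox_KO and 120 and 281 spots in Control held no UMI of the macrophage and T cell lists. Over those spots alone, Vcam1 had a log2 fold change of 1.10 (adjusted p 0.703), Icam1 of 0.77 (adjusted p 0.575) and Alcam of 2.20 (adjusted p 0.105), with 38 genes called higher and 4 lower of 9967 tested, and the 6 leukocyte and selectin genes were too scarce to test.

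Other adhesion genes, in 5 lists of 58 genes chosen for their role, were counted in the same fit. Of 51 that passed the filter on low counts, 38 rose and 4 fell, where 34.6% of all genes were called higher and 32.5% lower. The counts of each list stand against the same shares. Of the integrin chains, all 11 tested rose, with a median log2 fold change of 1.13; the 3 with the smallest p were Itgb7, the second partner of the Itga4 chain (log2 fold change 2.58), Itgax, the chain of CD11c (2.66), and Itgav, a chain of matrix-binding integrins (1.13). Of 12 other immunoglobulin-type and matrix ligands, 9 rose and none fell, led by the hyaluronan receptor Cd44 (log2 fold change 4.60), fibronectin Fn1 (3.06) and the CD47 receptor Sirpa (0.81). Of 9 selectins and selectin carriers, 7 rose and 1 fell; Cd24a (log2 fold change 1.33), the sialyltransferase St3gal4 (1.53) and the leukocyte sialomucin Spn (2.24) had the smallest p. Integrin activation genes were less uniform, with 6 of 10 higher and 1 lower and a median log2 fold change of 0.24. The 3 with the smallest p were Apbb1ip, the RAP1 effector RIAM (log2 fold change 3.51), Fermt3, the kindlin of blood cells (2.20), and the exchange factor Vav1 (3.19). Of 9 junctional and transmigration genes, 5 rose and 2 fell, with Stab1 (log2 fold change 2.39), Jam2 (1.65) and the amine oxidase gene Aoc3 (2.60) named by the same rule. The named genes all passed, and the highest adjusted p among them was 7.26e-05, that of Spn.

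The genotypes were next compared outside the spots with Havcr1 transcripts and within the endothelium-rich spots. Among spots without a Havcr1 UMI, 9 of the 10 genes rose, where 33.0% of all genes were called higher and 31.1% lower. Vcam1 was at 70.4 and 59.4 CPM in Uox_KO and at 4.93 and 4.81 CPM in Control there, a log2 fold change of 3.74 (SE 0.10, adjusted p 1.94e-06). Icam1 was at 53.7 and 46.8 CPM in Uox_KO and at 14.2 and 14.2 CPM in Control, a log2 fold change of 1.82 (SE 0.08, adjusted p 6.63e-06). Both genes thus stood above Control in spots without detected Havcr1; a spot without a UMI can still hold the transcript. Icam2 had a log2 difference of -0.22 (adjusted p 0.145) here, which became 0.02 with library totals in place of TMM and was called at 5000 UMIs per spot (-0.32, adjusted p 0.0436) and without spots of fat and urothelium (-0.37, adjusted p 0.0338).

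Endothelium-rich spots were the 25% of the spots of each section with the largest share of UMIs from 14 endothelial markers, none of them among the 10 genes. In these spots too 9 of the 10 genes rose, where 32.9% of all genes were called higher and 30.7% lower. All 13 macrophage and 11 T and NK cell markers rose in them as well, with median log2 fold changes of 3.49 and 3.44, and their part in this result was not tested. Vcam1 was at 108 and 101 CPM in Uox_KO and at 9.0 and 9.42 CPM in Control (log2 fold change 3.50, SE 0.10, adjusted p 1.17e-09), and Icam1 at 90.9 and 83.4 CPM in Uox_KO and at 18.7 and 18.3 CPM in Control (2.24, SE 0.09, adjusted p 1e-08). Selp gave 32 and 20 UMIs in Uox_KO and 1 and 2 UMIs in Control. These numbers of molecules set the fold too loosely for it to be given. Icam2 was at 23.6 and 24.5 CPM in Uox_KO and at 24.1 and 30.6 CPM in Control, with overlapping groups and a log2 difference of -0.19 (95% interval -0.47 to 0.10, adjusted p 0.226), or 0.18 with library totals. Without Control replicate 1 it was called, at -0.36 (adjusted p 0.0434).

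Whether Vcam1 and Icam1 lie with endothelium or with Havcr1-positive tubule was asked within the Uox_KO sections. Their spots were split into 4 classes by at least 1 Havcr1 UMI and by the endothelium-rich 25%, and class sums were compared with the section as a block, so the p-values measure how class differences vary between 2 sections. Among these 4 classes Vcam1 was highest with Havcr1, and it did not pass a test for higher levels in endothelium-rich spots. Icam1 was higher in both, but passed for neither once macrophage-rich spots were split off. Icam2, the constitutive endothelial ligand, was higher in endothelium-rich spots and did not pass for Havcr1. The 4 classes leave out macrophages. The contrast of macrophage-rich with other spots, given below, was larger for Vcam1 than its Havcr1 contrast, at 1.32 against 0.76 in separate fits.

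Vcam1 stood at 162 and 135 CPM in spots with Havcr1 only, at 135 and 133 CPM in spots with Havcr1 that were also endothelium-rich, at 98.1 and 89.3 CPM in endothelium-rich spots without Havcr1 and at 81.0 and 66.9 CPM in spots with neither. In each section the classes with Havcr1 lay above those without. The contrast of Havcr1-positive with Havcr1-negative spots was 0.76 on the log2 scale (SE 0.06, adjusted p 4.58e-08), or 1.70-fold. The contrast of endothelium-rich with other spots was 0.10 (SE 0.06, adjusted p 0.154; 95% interval -0.02 to 0.22). That last value depended on the scale: it was 0.44 (adjusted p 2.02e-05) with library totals, which moved the median of all genes by 0.37, and -0.01 with all spots thinned to 5000 UMIs.

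Icam1 stood at 80.2 and 78.3 CPM in spots with Havcr1 only, at 96.2 and 81.8 CPM in those with both, at 90.3 and 85.0 CPM in endothelium-rich spots without Havcr1 and at 57.8 and 48.8 CPM in spots with neither. The spots with neither were lowest, and the other 3 classes lay close together. The Havcr1 contrast was 0.30 (SE 0.06, adjusted p 0.00128) and the endothelial contrast 0.44 (SE 0.06, adjusted p 4.15e-06). The Havcr1 contrast of Icam1 missed the threshold at an equal depth of 5000 UMIs per spot (0.29, adjusted p 0.0615). With macrophage-rich spots split off, neither contrast of Icam1 passed, at 0.16 (adjusted p 0.0512) for Havcr1 and 0.12 (adjusted p 0.0962) for endothelium.

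**Figure D2:**
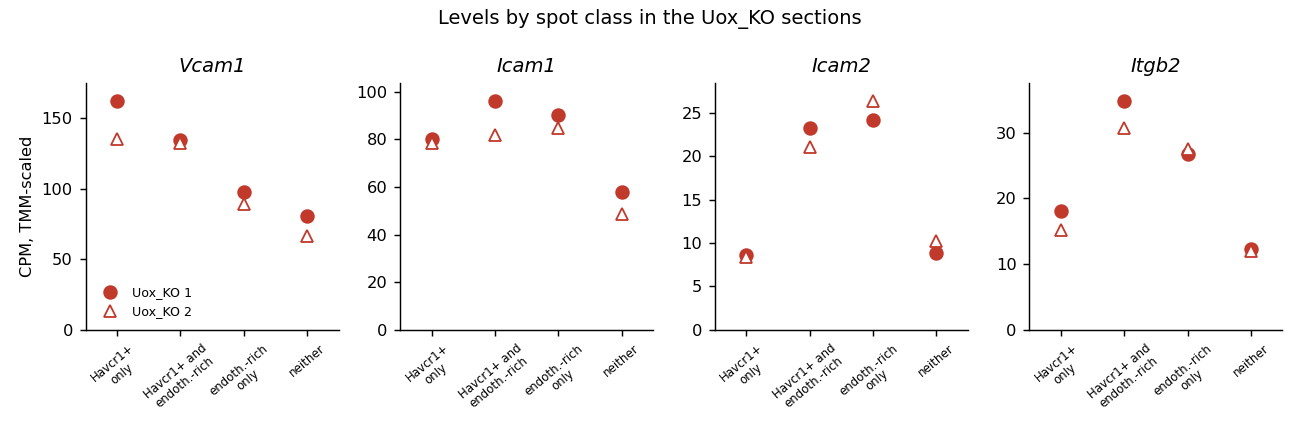
Levels of Vcam1, Icam1, Icam2 and Itgb2 (y axes: TMM-scaled CPM from 0) in 4 classes of spots of the Uox_KO sections, with filled circles for section 1 and open triangles for section 2. Vcam1 is highest in spots with Havcr1 only, Icam1 is lowest in spots with neither signal, and Icam2 is high in both endothelium-rich classes.

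Of all 10 genes, 5 were higher and 1 lower in Havcr1-positive spots, where 9.10% of 14958 genes were called higher and 9.99% lower. Besides Vcam1 and Icam1, these were Itgam (log2 difference 0.69, adjusted p 0.000591), Itgb2 (0.36, adjusted p 0.00536) and Selplg (0.30, adjusted p 0.0355), while Alcam was lower (-0.26, adjusted p 0.0492). At 5000 UMIs per spot Itgb2 (0.27, adjusted p 0.422), Selplg (0.17, adjusted p 0.698) and Alcam (-0.12, adjusted p 0.717) no longer passed. Macrophage markers moved with Havcr1 as well, 12 of 13 being higher, and the 11 T and NK cell markers had a median log2 difference of -0.02. Once macrophage-rich spots were split off, the Havcr1 contrast of Vcam1 was 0.61 and still called, while those of Icam1 (0.16), Itgb2 (0.21) and Selplg (-0.01) were not. In endothelium-rich spots 9 of the 10 genes were higher and none lower, where 27.8% of all genes were called higher and 27.0% lower. The largest of these were Selp (log2 difference 2.36, adjusted p 1.86e-05), Itga4 (1.40, adjusted p 2.69e-06), Icam2 (1.39, adjusted p 3.95e-09) and Itgal (1.17, adjusted p 2.31e-06). In the same spots all 13 macrophage markers (median log2 difference 0.95), all 11 T and NK cell markers (1.28), all 8 fibroblast, all 7 smooth muscle and pericyte (1.64) and all 7 podocyte markers (2.79) were higher.

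Set directly against each other, spots with Havcr1 only and endothelium-rich spots without Havcr1 separated the genes. These classes also differed in depth. In the Uox_KO sections the former averaged 28019 and 29546 UMIs per spot and the latter 9852 and 11462.5. Vcam1 was higher with Havcr1, by 0.66 on the log2 scale (SE 0.08, adjusted p 1.04e-06), the only 1 of the 10 to be so, where 27.3% of all genes were called higher. For 7 genes the Havcr1 spots were lower, where 28.0% of all genes were called lower: Icam2 (-1.58), Selp (-2.08), Itga4 (-1.26), Itgal (-1.01), Itgb2 (-0.71), Selplg (-0.69) and Alcam (-0.53). All 11 T and NK cell markers were lower there too (median -1.42), as were 10 of 13 macrophage, all 8 fibroblast and all 7 podocyte markers, and their part in this contrast was not tested. Icam1 did not pass, at -0.14 (SE 0.07, adjusted p 0.109; 95% interval -0.30 to 0.01), nor did Itgam at -0.30 (adjusted p 0.132). Icam1 was called lower in the Havcr1 spots with library totals (-0.43, adjusted p 0.000309), with the endothelium-rich 10% in place of 25% (-0.50, adjusted p 0.00019) and without spots of fat and urothelium (-0.21, adjusted p 0.0346). At an equal depth of 5000 UMIs per spot, where fewer molecules entered, fewer of the 10 genes passed in this contrast.

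As shares of molecules, the picture also depends on depth. Havcr1-positive spots were 35.2% and 34.6% of the spots of the Uox_KO sections and held 44.9% and 42.1% of all UMIs, 60.9% and 59.5% of the Vcam1 UMIs and 51.2% and 52.0% of the Icam1 UMIs. Endothelium-rich spots held 13.5% and 13.9% of all UMIs, 14.9% and 17.7% of the Vcam1 UMIs, 20.6% and 21.9% of the Icam1 UMIs and 34.6% and 35.6% of the Icam2 UMIs. Both genes took more of their UMIs from Havcr1-positive spots than the depth of those spots alone would give, and Vcam1 by more. The same held for both in endothelium-rich spots, and there Icam1 by more. Relative to the share of all UMIs, the Icam1 excess was larger in endothelium-rich than in Havcr1-positive spots.

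Levels were also taken at equal depth, in spots thinned to 5000 UMIs. By Havcr1 count the 4 bins held 1920, 284, 65 and 88 spots in Uox_KO section 1 and 2023, 259, 56 and 100 spots in section 2. Vcam1 was at 103, 132, 168 and 277 CPM in section 1 and at 93.1, 132, 122 and 178 CPM in section 2 for 0, 1, 2 and at least 3 Havcr1 UMIs. The bin without Havcr1 was lowest and the top bin highest in both sections. Icam1, by the same bins, was at 77.6, 84.0, 79.3 and 103 CPM in section 1 and at 71.8, 100.4, 101 and 103 CPM in section 2, a flatter course. Alcam had its lowest values in the top bin, 33.5 and 21.0 CPM, against 42.1 and 42.2 CPM without Havcr1, but those top values rest on 15 and 10 UMIs and its Havcr1 contrast did not pass at this depth.

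**Figure D3:**
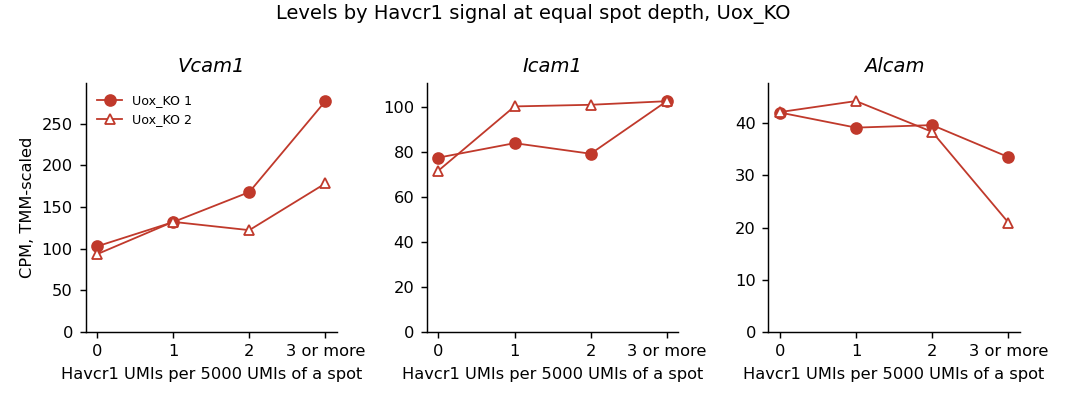
Levels of Vcam1, Icam1 and Alcam (y axes: TMM-scaled CPM from 0) by the number of Havcr1 UMIs in spots thinned to 5000 UMIs (x axes), for Uox_KO section 1 (filled circles) and section 2 (open triangles). Vcam1 reaches 277 and 178 CPM in the top bin, and Alcam is lowest there.

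Leukocyte transcripts were compared in the same way, by also splitting off the 25% of each Uox_KO section with the largest share of macrophage and monocyte markers; this contrast was added after the data were seen. Of the 10 genes, 9 were higher in macrophage-rich spots, where 32.4% of 12996 genes were called higher and 28.5% lower. All 11 T and NK cell, all 8 fibroblast and 7 of 10 injured tubule markers were higher there as well. Their part in this contrast was not tested. The integrin chains and Selplg differed by 1.48 to 1.98 on the log2 scale. Vcam1 was higher by 1.32 (SE 0.06, adjusted p 9.54e-14) and Icam1 by 0.87 (SE 0.06, adjusted p 2.3e-11), and Icam2 had a difference of -0.01 (adjusted p 0.935), or 0.37 with library totals.

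In this finer split Vcam1 kept its Havcr1 contrast at 0.61 (adjusted p 8.63e-07). Within spots that were not endothelium-rich, it was at 323 and 276 CPM in macrophage-rich spots with Havcr1. In spots with Havcr1 that were not macrophage-rich, it was at 129.8 and 96.4 CPM. Without Havcr1 it was at 191 and 201 CPM in macrophage-rich spots and at 69.2 and 55.1 CPM in the other spots. In both sections the macrophage-rich spots without Havcr1 lay above the spots with Havcr1 that were not macrophage-rich. The injured tubule marker Lcn2 had the same order, at 266 and 207 CPM in the former and 126 and 107 CPM in the latter. The part of injured tubule in this order of Vcam1 was not tested. Vcam1 thus stood higher with either signal and highest with both. With macrophages split off, its endothelial contrast was called lower, at -0.38 (adjusted p 4.19e-05). Besides the losses for Icam1 given above, Selplg lost its Havcr1 call (-0.01, adjusted p 0.961), as did Itgb2 (0.21, adjusted p 0.143), and Selp lost its endothelial call (1.63, adjusted p 0.0543).

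The endothelial contrast was set against that of Control in 1 fit of all 4 sections. In Control, 9 of the 10 genes were higher in endothelium-rich spots, where 24.7% of 15942 genes were called higher and 26.2% lower. Control Vcam1 was at 8.17 and 8.56 CPM in endothelium-rich spots and at 4.42 and 4.19 CPM in other spots, a difference of 0.96 (SE 0.11, adjusted p 2.85e-09). Icam1, Itgal and Itgam lost their Control calls without Control replicate 2 (adjusted p 0.126, 0.407 and 0.0633), and Icam1 also without Control replicate 1 (adjusted p 0.217). In Uox_KO Vcam1 was at 96.3 and 90.8 CPM in endothelium-rich spots and at 109 and 89.1 CPM in other spots, which overlap. The Vcam1 contrasts differed, by -1.04 on the log2 scale for Uox_KO minus Control (SE 0.12, adjusted p 1.49e-08).

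Itga4 also differed, by -0.89 (SE 0.25, adjusted p 0.00822), and the 2 genes were the only ones of the 10 called, where 5.56% of all genes were called higher and 18.6% lower. It was at 9.85 and 7.99 CPM in endothelium-rich spots and at 3.87 and 3.04 CPM in other spots of Uox_KO, and at 2.50 and 3.94 CPM against 0.593 and 0.750 CPM in Control. It stood higher in the endothelium-rich spots of all 4 sections, by less in Uox_KO. Icam1 had a difference of 0.20 (adjusted p 0.0623) and Icam2 of 0.09 (95% interval -0.15 to 0.33, adjusted p 0.654). At 5000 UMIs per spot the Vcam1 value was -0.70 (adjusted p 0.125), and without Control replicate 2 the Itga4 value was -0.70 (adjusted p 0.231).

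**Figure D4:**
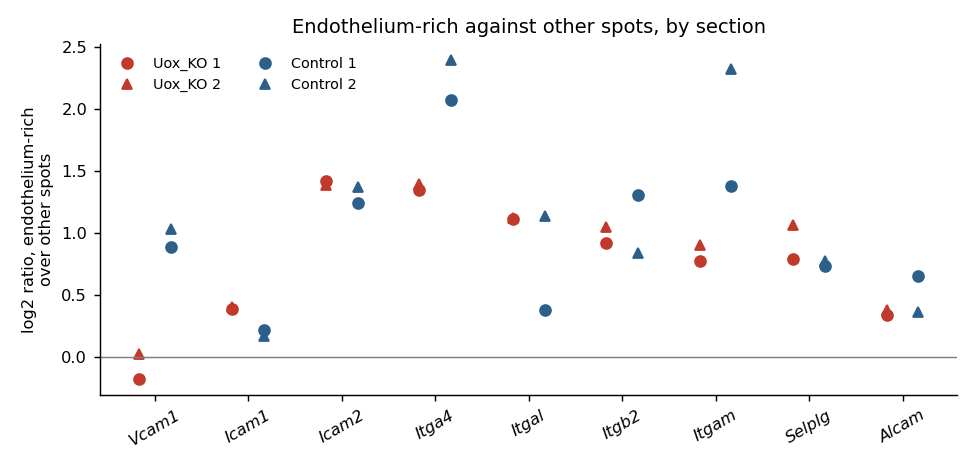
Log2 ratio of the TMM-scaled level in endothelium-rich spots to that in other spots (y axis) for 9 adhesion genes, with 1 point per section, Uox_KO in red and Control in blue. The Vcam1 ratio lies near 0 in both Uox_KO sections and near 1 in both Control sections; Selp is left out because the Control sections hold 2 and 4 of its UMIs.

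Cell type marker lists placed the genes more finely. For each list, the 10% of the spots richest in its markers were set against the other spots of the section, as a description with no test. In Uox_KO the Vcam1 level was 2.59 and 2.21 times as high in spots rich in injured tubule markers, 2.24 and 2.73 times in macrophage-rich spots and 0.863 and 1.03 times in endothelium-rich spots. In Control it was 2.55 and 2.57 times as high in endothelium-rich spots and 2.88 and 2.75 times in fibroblast-rich spots. Icam1 in Uox_KO had ratios of 1.42 and 1.62 for endothelium, 1.74 and 1.70 for macrophages and 1.87 and 1.73 for T and NK cells, and it was low in adipocyte-rich spots (0.546 and 0.495) and in spots of the distal convoluted and connecting tubule (0.609 and 0.576).

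The other genes each had lists of their own. Icam2 was 3.26 and 3.69 times as high in endothelium-rich spots of Uox_KO and 3.62 and 3.64 times in Control, and it was also high in podocyte-rich spots, where glomerular capillaries lie (2.70 and 3.51 times in Uox_KO, 3.33 and 2.99 times in Control). In Uox_KO Itgb2 and the myeloid chain Itgam peaked with macrophage markers, Itgb2 at 4.57 and 4.61 times and Itgam at 4.54 and 4.82 times. The lymphocyte chain Itgal peaked with T and NK cell markers, at 4.28 and 5.58 times. Control Itga4 was 6.07 and 7.67 times as high in podocyte-rich spots, with 217 UMIs over all spots of both sections together and fewer in the podocyte-rich ones. Alcam had its highest ratios with epithelial lists, which differed between the genotypes' sections. They were 2.56 and 1.80 in spots of the proximal tubule's S3 segment in Uox_KO. In Control they were 2.42 and 2.26 in intercalated cell and 2.30 and 2.38 in principal cell spots of the collecting duct. By the tests above Alcam was also higher in endothelium-rich (0.27, adjusted p 0.0164) and macrophage-rich spots (0.39, adjusted p 0.00149) of Uox_KO. It was higher in endothelium-rich spots of Control too (0.50, adjusted p 8.55e-07).

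**Figure D5:**
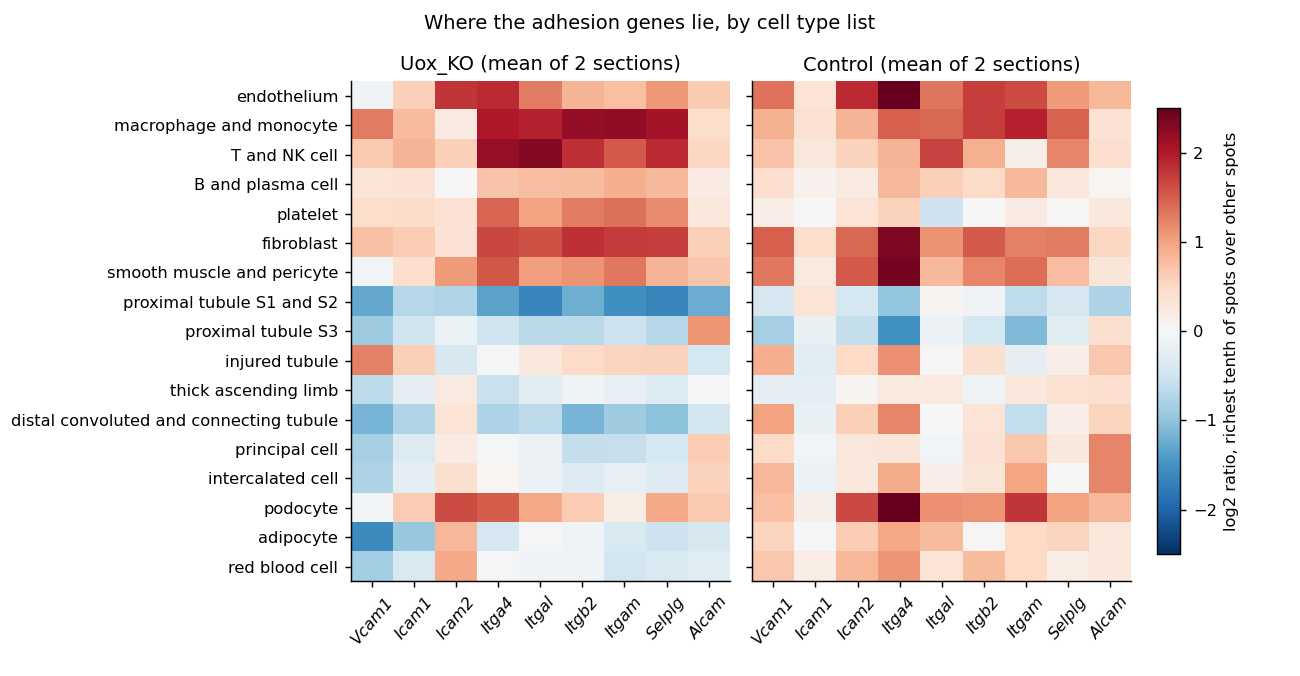
Colour gives the log2 ratio of the level in the 10% of spots richest in each marker list (rows) to that in the other spots for 9 adhesion genes (columns), as the mean of 2 sections, with Uox_KO on the left and Control on the right; ratios under 0.25 are drawn as 0.25. Vcam1 is red for macrophages and injured tubule in Uox_KO and for endothelium and fibroblasts in Control, and Icam2 is red for endothelium and podocytes in both.

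Genes whose levels varied most like those of Vcam1, Icam1 and Itgb2 were named by Pearson's r over the 2357 and 2438 spots of the Uox_KO sections with at least 5000 UMIs, among 5837 genes. The values describe spots that share a library, a depth and a tissue zone. For Vcam1 they were Tmsb10 (mean r 0.564), Ly6e (0.540), Cp (0.521), Cd74 (0.517) and Ptma (0.504); Cp encodes ceruloplasmin and Cd74 the invariant chain of class II antigen presentation. For Icam1 they were Tmsb10 (0.464), Actb (0.457), Cd74 (0.451), Mgp (0.445) and H2-Ab1 (0.445). For Itgb2 they were the macrophage gene Lyz2 (0.402), the class II genes H2-Eb1 (0.392) and H2-Aa (0.391), the complement gene C1qa (0.384) and Tmsb4x (0.379). Vcam1 and Icam1 had an r of 0.362 and 0.353 with each other over the spots of the 2 sections, and Vcam1 and Havcr1 of 0.243 and 0.238.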

How the data were processed

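Each deposited table holds whole-number UMI counts by gene and spot without normalization, as its values show. The submitters' processing notes name Space Ranger 1.3.1 and the mm10 build. Ensembl IDs stand beside symbols in the tables. The labels' group and replicate were followed where file names carry other numbers. The 10 genes, the marker and adhesion lists and the tests were chosen with earlier results of these data known. Counts were summed per section, or per section and spot class, filtered with filterByExpr, TMM-scaled and put through the quasi-likelihood test of edgeR 4.0.16 in R 4.3.3, with Benjamini-Hochberg adjustment over all genes tested and a threshold of 0.05. SE and 95% intervals come from that test. Endothelium-rich and macrophage-rich spots are the 25% of a section with the largest share of the list's UMIs. Named are the 10 genes, up to 3 genes of each adhesion list with the smallest p, and for 3 genes the 5 most alike by r of log(1 + UMIs per 10000) among genes of at least 20 CPM in both Uox_KO sections, predicted genes left out.

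Same-numbered sections were checked for pairing, and the correlation of their deviations over genes was 0.0899. With so few sections this value cannot tell whether they shared a slide or batch. Replicates differed beyond sampling noise (chi-square per degree of freedom 42.5 in Uox_KO, 20.5 in Control), and none was merged. DESeq2 1.42.0, other scalings, depths, class sizes and left-out sections were alternatives; library totals and left-out fat and urothelium spots for the class comparisons, and the macrophage contrast, were added after the data were seen. The edgeR steps were run on counts simulated from the fitted dispersions, with few genes changed and equal numbers up and down. Far more genes were called in the real data, so that run cannot show how the fits behave here. Nothing in the labels says more about how sections were batched, so p-values measure the spread between these sections, which may be technical.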

Additional observations from a re-analysis of the deposited data

Results flagged for a closer look

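For 2 genes the difference between endothelium-rich and other spots was not the same in the genotypes, by a test of the difference itself. On the TMM scale the Vcam1 ratios were near 1 in both Uox_KO sections, and its levels were higher in endothelium-rich spots in both Control sections. By library totals, Uox_KO Vcam1 was at 122.8 and 114.5 CPM in endothelium-rich spots and at 109.1 and 85.6 CPM in other spots. The value of the test for Vcam1 was -1.04 on the log2 scale for Uox_KO minus Control (SE 0.12, adjusted p 1.49e-08), and -0.70 (adjusted p 0.125) at 5000 UMIs per spot. For Itga4 it was -0.89 (SE 0.25, adjusted p 0.00822), and -0.70 (adjusted p 0.231) without Control replicate 2, with higher levels in endothelium-rich spots of all 4 sections. Of all genes, 18.6% were called lower in this test.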

How the results depend on the processing

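With sections as replicates, 2 per genotype limit the precision, as does the scarcity of Selp, Itgam and Itga4 in Control. Across the alternatives, the Havcr1, endothelial and direct contrasts of Vcam1 and Icam1 within Uox_KO were counted apart. Of the other single-gene values, 573 held, 29 lost a call, 6 gained one, 16 reversed and 2 moved without a test. A tested value held if it kept its direction and its side of the threshold. Values of single Uox_KO sections have no test, and held if they lay within the SD of the 2 sections' values. That outcome was nearly fixed, since the main value comes from the same 2 sections. Of the values for the questions on Vcam1, Icam1 and the counts of genes, 86 held, 3 lost a call, 4 gained one, 2 reversed and 7 moved. Many of the 86 were counts of called genes, which have no direction or side of the threshold. A count held if it stayed within a set ratio of the main count. The cause of a change was not tested unless named. The count of the 10 genes past the threshold in whole sections was 9 to 10 when each section was left out in turn, 10 with the replicate block, which changed no call of the 10 genes and called 5739 genes higher and 5377 lower, and 0 in spots without leukocyte UMIs, where fewer spots and genes entered. Leaving out sections gave 9 in Havcr1-negative spots, 9 to 10 in endothelium-rich spots, 6 to 9 for the Control endothelial contrast and 1 to 2 for its difference between genotypes. At 5000 UMIs per spot, where fewer molecules entered, the counts were 2 for the Havcr1 contrast (3 with 8 classes), 5 for Havcr1-only against endothelium-rich-only spots, 5 for the Control endothelial contrast and 1 for its difference between genotypes.

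For Icam1, the Havcr1 contrast lost its call with 8 classes (0.16) and at 5000 UMIs (0.29), the endothelial contrast lost it with 8 classes (0.12), and Havcr1-only against endothelium-rich-only gained one with library totals (-0.43), the richest 10% (-0.50) and without fat and urothelium spots (-0.21). The Vcam1 endothelial contrast was 0.44 with library totals, -0.013 at 5000 UMIs and -0.38 with 8 classes. In single Uox_KO sections, with no test, the Havcr1, endothelial and direct contrasts of Vcam1 were 0.73 to 0.79, 0.00 to 0.19 and 0.60 to 0.73, and those of Icam1 0.28 to 0.31, 0.43 to 0.45 and -0.17 to -0.12. Reversals of other genes were these. The Havcr1 contrast with 8 classes was -0.062 for Itga4 (-0.15 with at least 2 Havcr1 UMIs), -0.0024 for Itgal, -0.59 for Selp and -0.015 for Selplg, whose call it ended. Icam2 between genotypes was 0.0185 in Havcr1-negative and 0.18 in endothelium-rich spots with library totals. The genotype difference of the endothelial contrast was 0.0071 for Alcam and 0.072 for Itgb2 with library totals, -0.058 for Icam2 and -0.087 for Itgal with the richest 10%, and, with each section left out in turn, -0.0205 to 0.74 for Itgal and -0.32 to 0.15 for Itgb2. Icam2 in macrophage-rich spots was 0.11 at 5000 UMIs and, past the threshold, 0.37 with library totals. Selp could not be fitted at 5000 UMIs within Uox_KO or within Control.

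Over all genes, library totals moved the split of higher to lower calls: 5665 to 5325 became 8156 to 2926 in whole sections, 5305 to 5012 became 7243 to 2706 in Havcr1-negative spots, 4780 to 4465 became 7439 to 2317 in endothelium-rich spots, 1361 to 1494 became 1880 to 1113 for Havcr1, 4162 to 4043 became 7873 to 1602 for endothelium in Uox_KO, 3930 to 4178 became 7526 to 1298 for it in Control, 887 to 2963 became 2201 to 1641 for their difference, 4089 to 4186 became 1860 to 6383 for Havcr1-only against endothelium-rich-only and 4208 to 3705 became 8221 to 1690 for macrophages. At 5000 UMIs the same splits were 420 to 554 for Havcr1, 1737 to 1705 and 1229 to 1481 for endothelium in Uox_KO and in Control, 112 to 704 for their difference, 1681 to 1856 for the direct contrast and 2254 to 2199 for macrophages; with 8 classes the endothelial split was 2668 to 2738, and without Control replicate 2 the Control one was 2563 to 2745.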
